A study of Mus musculus with 18 samples.

Results

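Sox10, Phox2a, Isl1, Pou4f1, Prph, Th, Dbh and Ret were followed in whole mouse embryos that differ in the DNA methyltransferase gene Dnmt3b. The 8 genes were taken by symbol from an RNA-seq table of 34244 named genes, and all 8 were among the 19397 genes with enough signal to test. The study compared FVB embryos at E11.5 (embryonic days after mating) that were wild type (Dnmt3b+/+), lacked Dnmt3b (Dnmt3b-/-, made by a loxP approach) or carried a catalytically inactive Dnmt3b on both alleles (Dnmt3bCI/CI, a CRISPR knock-in of amino acid changes in the catalytic domain). There were 3 embryos and 3 libraries per genotype, all untreated, taken from natural matings of heterozygous parents of the same background, and only live embryos were used. The question addressed was whether loss of the protein and loss of its catalytic activity alone have different effects on the embryo.

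Sensory and autonomic ganglia hold the cell bodies of peripheral neurons. Most of their cells derive from the neural crest, a migratory population that leaves the dorsal neural tube, and many cranial sensory neurons derive from ectodermal placodes. Crest cells that reach the ganglia become either glia, which keep the crest factor SOX10, or neurons, which switch on homeodomain factors such as ISL1, POU4F1 and the PHOX2 pair and then the filaments, receptors and transmitter enzymes of a mature neuron. At mid-gestation the dorsal root, cranial and sympathetic ganglia are present and still growing. Several of the 8 genes are also used elsewhere in the embryo, for example Isl1 in motor neurons, the second heart field and the hindlimb, Th in the midbrain and Ret in the ureteric bud.

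The libraries held 38451729 to 49808777 reads each, as worked back from the values, and the 8 genes were covered by 11 to 2125 reads per embryo. Levels are given in FPKM, read numbers scaled for the exon length of the gene and the depth of the library, so that genes can be set beside one another. The value of Dnmt3b, summed over the whole gene, was 2.25, 1.62 and 2.04 FPKM in the wild type, 2.45, 3.12 and 3.33 FPKM under the label Dnmt3b-/- and 2.06, 1.98 and 2.32 FPKM under Dnmt3bCI/CI. A value over the whole gene cannot show the loss of a part of it, so this value does not check the null label, and the null embryos are called here by their label. In RNA from a whole embryo, fewer cells of a type and less RNA per cell cannot be told apart.

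None of the 8 genes passed the test between the embryos labelled Dnmt3b-/- and Dnmt3b+/+, nor between Dnmt3bCI/CI and Dnmt3b+/+. Of all genes tested, 4.45% and 0.129% passed it in these comparisons. Sox10 and Prph passed it between the embryos labelled Dnmt3b-/- and Dnmt3bCI/CI, as did 5.42% of all genes, and both were lower in the former. Under 19 other settings or choices of embryos, Sox10 did not pass in 7 and Prph did not in 10. The values of the embryos labelled Dnmt3b-/- were spread widely. Embryo 1 was close to or above the wild-type mean for most of the genes, whereas embryo 3 was the lowest of its genotype for 7 of 8 genes, with 16.4% of the wild-type mean for Prph and 11.6% for Dbh. The Dnmt3bCI/CI embryos resembled each other closely.

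Sox10 encodes an HMG-box transcription factor of migrating crest cells, which is later kept in glia of the ganglia and in melanoblasts. It was at 8.95, 8.98 and 12.2 FPKM in the Dnmt3b+/+ embryos, at 9.46, 4.99 and 3.46 FPKM in those labelled Dnmt3b-/-, and at 10.8, 13.1 and 13.5 FPKM in Dnmt3bCI/CI. Embryo 1 of the null label lay within the wild-type values, and embryos 2 and 3 lay below all of them. All 3 were below every Dnmt3bCI/CI embryo. The gene lies on chromosome 15 at 79154908-79165240, minus strand (GRCm38).

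Among the neuronal transcription factors, Isl1 (chromosome 13, 116298281-116309689, minus strand) encodes a LIM-homeodomain factor needed by sensory, sympathetic and motor neurons. Its level was 4.73, 4.25 and 5.03 FPKM in Dnmt3b+/+ embryos, 5.80, 3.83 and 2.92 FPKM under the null label and 4.71, 5.27 and 5.08 FPKM in Dnmt3bCI/CI embryos. The embryos of the null label thus held both the highest and the lowest Isl1 value of the 9. Pou4f1 (chromosome 14, 104461676-104467999, minus strand), a POU-homeodomain factor of sensory neurons and of some midbrain and hindbrain neurons, was at 3.24, 9.13 and 3.75 FPKM in Dnmt3b+/+, 7.82, 2.18 and 1.88 FPKM under the null label and 5.33, 7.25 and 6.83 FPKM in Dnmt3bCI/CI. Wild-type embryo 2 stood well above the other wild-type embryos, and embryo 1 of the null label stood well above the others of its label.

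Phox2a (chromosome 7, 101818313-101822726, plus strand) encodes a homeodomain factor of noradrenergic and cranial motor neurons. It was low in all embryos, with 0.991, 1.02 and 1.64 FPKM in Dnmt3b+/+, 1.12, 1.23 and 0.461 FPKM under the null label, and 1.18, 1.62 and 1.55 FPKM in Dnmt3bCI/CI. Only embryo 3 of the null label, with 38 reads, was below all wild-type embryos. Phox2a shares 95 exon bases with Inppl1 on the opposite strand, and the strandedness of the libraries is not given in the sources used here, so reads of those bases cannot be told apart.

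Prph encodes peripherin, an intermediate filament protein of neurons with axons in the periphery. It had the highest mean of the 8 in every genotype, although Sox10 was above it in wild-type embryo 1 and in embryos 2 and 3 of the null label. Its levels were 8.78, 17.4 and 14.3 FPKM in Dnmt3b+/+ embryos, 14.7, 4.24 and 2.21 FPKM in embryos labelled Dnmt3b-/-, and 17.5, 21.4 and 20.1 FPKM in Dnmt3bCI/CI embryos. Embryo 1 of the null label was above the wild-type mean and the other two were below every wild-type embryo, while all Dnmt3bCI/CI embryos were above every embryo of the other genotypes. The gene lies on chromosome 15 at 99055174-99058978, plus strand.

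**Figure D1:**
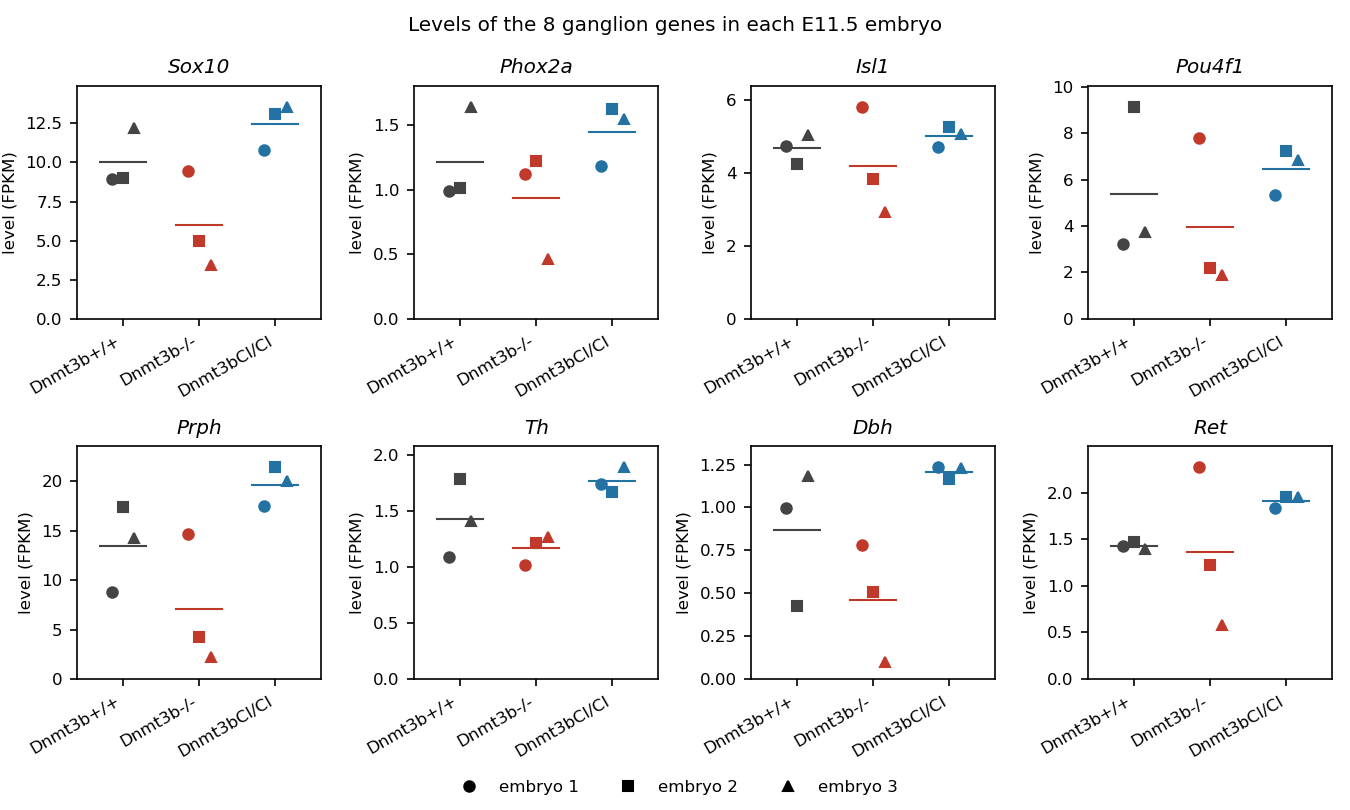
Level in FPKM (vertical axes, linear from 0) of each gene in each of the 9 embryos, with 3 embryos per genotype shown by marker shape and the mean of each genotype as a horizontal line. Under the label Dnmt3b-/-, embryo 3 was the lowest for 7 of 8 genes (the exception was Th), and the 3 Dnmt3bCI/CI embryos lay close together.

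Ret encodes the receptor tyrosine kinase for the GDNF family ligands and is needed by sympathetic, enteric and some sensory neurons. It was at 1.43, 1.47 and 1.39 FPKM in Dnmt3b+/+, 2.27, 1.23 and 0.583 FPKM under the null label and 1.83, 1.95 and 1.95 FPKM in Dnmt3bCI/CI. All Dnmt3bCI/CI embryos were above all wild-type embryos, and those of the null label lay on both sides of them. Ret lies on chromosome 6 at 118151745-118197718, minus strand.

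Th and Dbh encode enzymes of noradrenaline synthesis, with the decarboxylase encoded by Ddc acting between them. Tyrosine hydroxylase, the rate-limiting enzyme, makes the precursor of dopamine, and dopamine beta-hydroxylase turns dopamine into noradrenaline. Th was at 1.09, 1.79 and 1.41 FPKM in Dnmt3b+/+, 1.02, 1.21 and 1.27 FPKM under the null label and 1.74, 1.67 and 1.89 FPKM in Dnmt3bCI/CI. Its spread in the embryos of the null label was small, and embryo 1, not 3, was the lowest. Dbh was at 0.998, 0.425 and 1.18 FPKM in Dnmt3b+/+, 0.782, 0.507 and 0.101 FPKM under the null label, and 1.23, 1.17 and 1.23 FPKM in Dnmt3bCI/CI. In embryo 3 of the null label, 11 reads stood behind the Dbh value, the fewest behind any value of the 8 genes. The 2 enzymes thus differed most in that embryo, which held 88.9% of the wild-type mean of Th and 11.6% of that of Dbh.

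The promoter windows of this pair, 250 bases up to the start of transcription in RefSeq (GRCm38.p6), are shown because the enzymes act in one pathway and differed in embryo 3. RefSeq windows were at hand for 6 of the 8 genes. Capitals mark the letters TAAT, the core read by many homeodomain proteins, and TGACGTCA, the full cAMP response element, on either strand (ATTA is TAAT on the other strand, and the 2 motifs do not overlap here). The Th window is chr7:142899996-142900245, minus strand, and the Dbh window is chr2:27165257-27165506, plus strand.
Th: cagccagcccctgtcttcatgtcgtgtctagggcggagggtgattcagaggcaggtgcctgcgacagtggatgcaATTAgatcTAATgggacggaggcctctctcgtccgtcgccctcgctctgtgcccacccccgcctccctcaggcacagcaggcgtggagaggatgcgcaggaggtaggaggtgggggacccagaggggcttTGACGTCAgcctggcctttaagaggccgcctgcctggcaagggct
Dbh: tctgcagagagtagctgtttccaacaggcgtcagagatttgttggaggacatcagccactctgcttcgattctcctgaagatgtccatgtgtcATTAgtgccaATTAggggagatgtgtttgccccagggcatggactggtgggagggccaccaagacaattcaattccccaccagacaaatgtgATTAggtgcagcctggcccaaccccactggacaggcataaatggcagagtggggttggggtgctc
The Th window held TGACGTCA once, starting 45 bases before the start site, and TAAT at 2 places. The Dbh window held TAAT at 3 places and no TGACGTCA. Of 32851 promoter windows of the same length, 1.55% held TGACGTCA, 54.9% held TAAT at least once and 17.3% held it at 3 or more places. TAAT was also found at 2 places in the window of Isl1 and at none in those of Phox2a, Pou4f1 and Prph. These matches are letters in a window and say nothing of binding.

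In the wild type, mean levels followed the order Prph (13.5 ± 4.4 FPKM, SD, n = 3), Sox10 (10.1 ± 1.9), Pou4f1 (5.38 ± 3.26), Isl1 (4.67 ± 0.39), Th (1.43 ± 0.35), Ret (1.43 ± 0.04), Phox2a (1.22 ± 0.37) and Dbh (0.869 ± 0.396). Only Isl1 and Th were neighbours with separate ranges, so the 4 more abundant genes stood apart from the 4 less abundant ones, while neighbours inside either set did not differ beyond their spread. In Dnmt3bCI/CI embryos, where the spread was smaller, the ranges were separate for 5 of the 7 pairs of neighbours, and Prph (19.7 ± 2.0 FPKM), Sox10 (12.5 ± 1.5), Pou4f1 (6.47 ± 1.01) and Isl1 (5.02 ± 0.28) could be ordered. Under the null label, the ranges of all neighbours overlapped.

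The spread between embryos of the null label differed from gene to gene. The ratio of the highest to the lowest embryo was 7.76 for Dbh, 6.65 for Prph, 4.15 for Pou4f1, 3.89 for Ret, 2.73 for Sox10, 2.66 for Phox2a, 1.99 for Isl1 and 1.25 for Th. The median ratio over the 15350 genes with a mean of at least 0.4 FPKM was 1.21 in these embryos, and 0.424% of them had a ratio as large as that of Dbh and 0.554% as large as that of Prph. In Dnmt3bCI/CI embryos the ratios of the 8 genes lay between 1.06 and 1.37, with a median over genes of 1.13. In wild-type embryos they lay between 1.06 for Ret and 2.82 for Pou4f1, with a median over genes of 1.18. The wide spread was therefore not shared by all genotypes, although wild-type embryos also differed in Pou4f1 and Dbh.

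Embryo by embryo, the first embryo labelled Dnmt3b-/- held 94.2% of the wild-type mean for Sox10, 109% for Prph, 146% for Pou4f1 and 159% for Ret. The second held 49.7%, 31.4%, 40.5% and 85.9% for the same genes, and the third 34.5%, 16.4%, 35.1% and 40.8%. Of the 8 genes, 1 was below all wild-type embryos in the first, 5 in the second and 7 in the third, whereas of all genes tested 35.4%, 42.4% and 47.1% were. The 8 levels summed to 43.0, 19.4 and 12.9 FPKM in these embryos, to 30.2, 44.5 and 40.9 FPKM in Dnmt3b+/+ and to 44.3, 53.5 and 52.1 FPKM in Dnmt3bCI/CI.

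**Figure D2:**
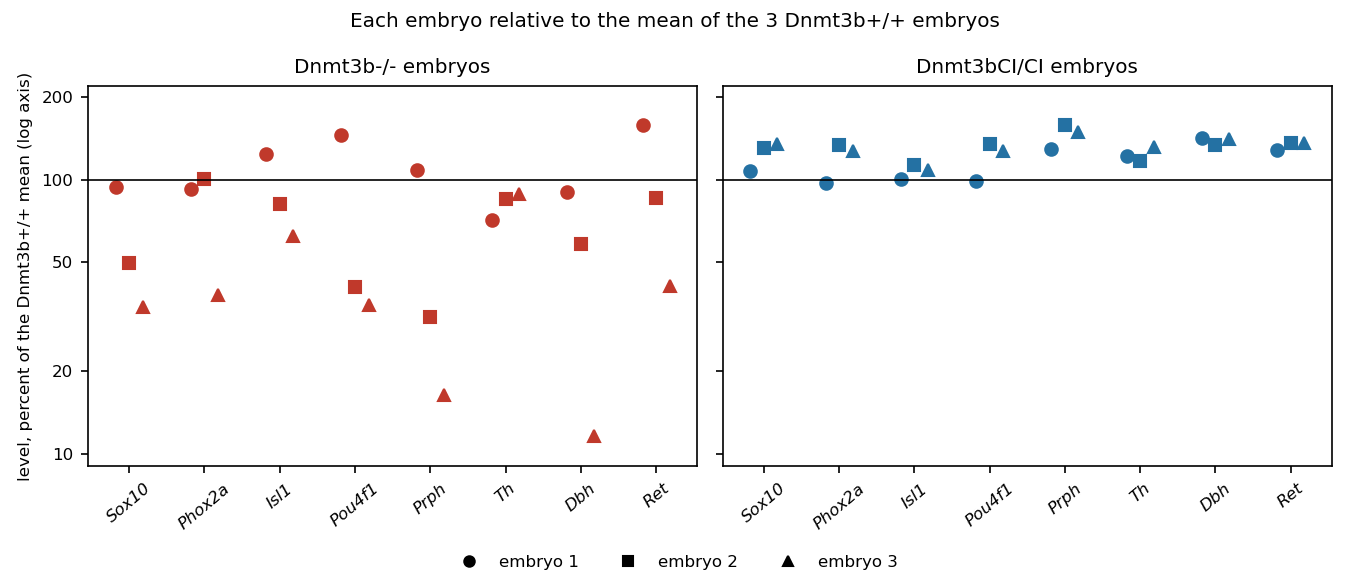
Level of each gene in each embryo labelled Dnmt3b-/- (left) and each Dnmt3bCI/CI embryo (right), in percent of the mean of the 3 Dnmt3b+/+ embryos on a log axis, with marker shapes for embryos 1 to 3. Under the null label the values ran from 11.6% (Dbh, embryo 3) to 159% (Ret, embryo 1), and in Dnmt3bCI/CI from 97.2% (Phox2a, embryo 1) to 159% (Prph, embryo 2).

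Differences between genotypes were tested with limma on log2(FPKM + 0.1), a scale that understates the change of low genes, with 1 model for the 9 embryos and Benjamini-Hochberg adjustment over all 19397 genes. A gene was called at an adjusted p under 0.05 with a fold of at least 2. Nothing states that same-genotype embryos came from separate litters, so p-values measure the spread between these embryos only.

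Between embryos labelled Dnmt3b-/- and Dnmt3b+/+, limma called 0 of the 8 genes, against 4.45% of all genes tested. At an unadjusted p under 0.05 the count was 1 (Sox10), beside 7759 of all 19397 genes. Calls by limma-voom on the reads worked back also numbered 0, beside 1274 of 19392 genes. The largest differences were those of Prph, with a log2 fold change of -1.30 (SE 0.58, adjusted p = 0.127), Dbh, with -0.93 (SE 0.52, adjusted p = 0.219), and Sox10, with -0.85 (SE 0.31, adjusted p = 0.0771). The 95% intervals of the difference, before adjustment, ran from -2.62 to 0.01 for Prph, from -2.12 to 0.26 for Dbh and from -1.56 to -0.14 for Sox10, so changes of more than 2-fold remain within them. Isl1 (-0.21), Ret (-0.24), Th (-0.25), Phox2a (-0.41) and Pou4f1 (-0.58) differed less. All 8 estimates were below 0, as were 58.1% of all genes, and the median of the 8 was -0.49, beside -0.07 for all genes. The groups overlapped for all 8 genes, whereas 23.8% of all genes were lower in every embryo of the null label.

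Embryo 1 of the null label decided this count. Without it, Sox10 (log2 fold change -1.24, adjusted p = 0.00297), Prph (-2.05, adjusted p = 0.00321) and Pou4f1 (-1.21, adjusted p = 0.0434) were called lower, or 3 of 8 genes where 6.1% of all genes were. Over the 19 alternatives run, the adjusted p ranged from 0.00297 to 0.211 for Sox10, from 0.00321 to 0.354 for Prph and from 0.0434 to 0.90 for Pou4f1. Without embryo 3 of the null label, the estimates of Isl1 and Ret changed sign, to 0.017 and 0.21.

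Between Dnmt3bCI/CI and Dnmt3b+/+ embryos, limma called none of the 8 genes, where 0.129% of all genes were called. No gene of the 8 was called by limma-voom or had an unadjusted p under 0.05, which 1019 of all 19397 genes had. The log2 fold changes lay between 0.10 (Isl1) and 0.59 (Prph), with adjusted p of 0.949 to 0.973. All 8 were above 0, as were 55.7% of all genes, and their median was 0.36, beside 0.02 for all genes. The interval of the difference ran from -0.72 to 1.91 for Prph and from -0.36 to 0.57 for Isl1. For Prph and Ret, all 3 Dnmt3bCI/CI embryos were above all wild-type embryos, which held for 7.53% of all genes.

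Between embryos labelled Dnmt3b-/- and Dnmt3bCI/CI, limma called 2 of the 8 genes, against 5.42% of all genes tested, and both were lower under the null label, as were 4.32% of all genes. Sox10 was 2.24-fold lower (log2 fold change -1.17, SE 0.31, adjusted p = 0.0256) and Prph 3.72-fold lower (-1.90, SE 0.58, adjusted p = 0.0404). Th had an adjusted p of 0.0357 with a fold of 1.48, under the fold asked for (18.2% of all genes had such an adjusted p and were lower), and Dbh a fold of 2.75 with an adjusted p of 0.0670. The other genes had log2 fold changes of -0.31 (Isl1) to -0.98 (Pou4f1) and adjusted p of 0.160 to 0.282. All 8 were below 0, as were 59.2% of all genes, and the median of the 8 was -0.83, beside -0.08 for all genes. Sox10, Prph, Th and Dbh were lower in every embryo of the null label than in any Dnmt3bCI/CI embryo, as were 29.5% of all genes.

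Of 19 alternatives, the call stood in 12 for Sox10 and in 9 for Prph, with an adjusted p of 0.00105 to 0.0801 for Sox10 and 0.00104 to 0.116 for Prph. Leaving out any Dnmt3bCI/CI embryo, or embryo 2 or 3 of the null label, left 0 calls among the 8 genes. Over all genes, calls then went from 1051 to between 722 (without embryo 3 of the null label) and 948 (without Dnmt3bCI/CI embryo 2). Without wild-type embryo 3, Sox10 alone of the 8 was called, beside 980 of all genes. Without embryo 1 of the null label, Sox10, Prph, Dbh, Pou4f1 and Ret were called, 5 of 8 genes where 6.99% of all genes were called lower. This comparison shares its null-label embryos with the first and its Dnmt3bCI/CI embryos with the second, so the comparisons are not independent of each other.

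**Figure D3:**
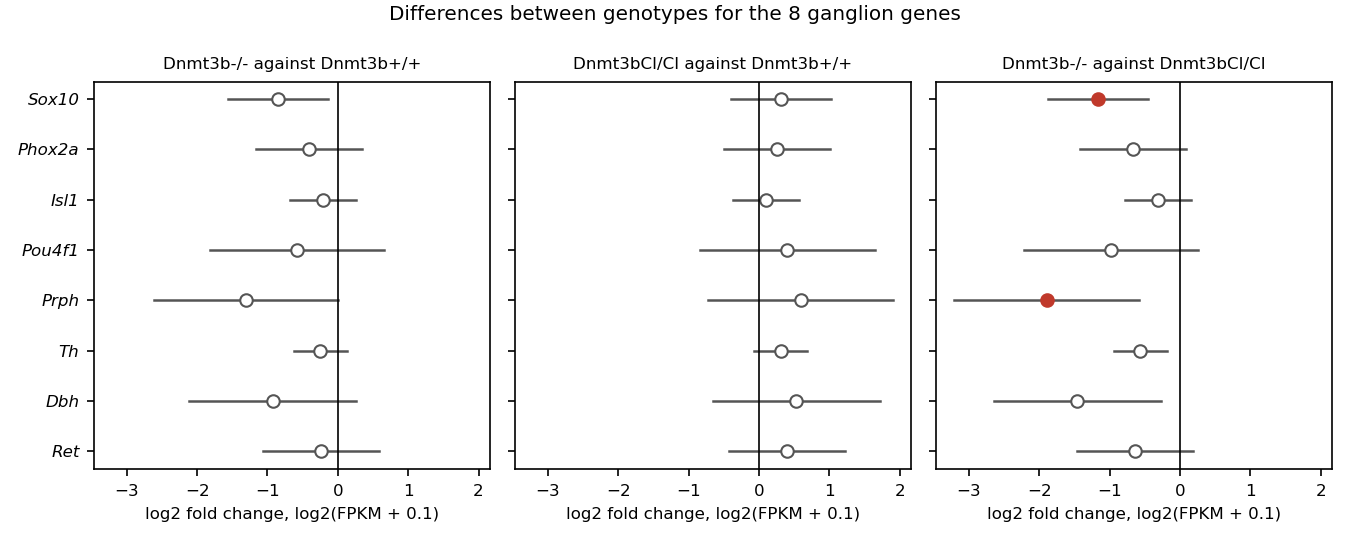
Log2 fold change on the log2(FPKM + 0.1) scale (horizontal axes) of each gene in the 3 comparisons, with 95% intervals before adjustment as bars and filled red points for genes called. All 8 points lay below 0 in the comparisons of the embryos labelled Dnmt3b-/-, and Sox10 and Prph were called in the one against Dnmt3bCI/CI.

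Neuronal transcripts as a whole also differed between embryos. The summed level of 12 pan-neuronal genes was 311, 611 and 398 FPKM in Dnmt3b+/+ embryos, 528, 280 and 237 FPKM under the null label and 412, 484 and 469 FPKM in Dnmt3bCI/CI. All 12 had log2 fold changes below 0 between the null label and Dnmt3b+/+, as did 58.1% of all genes, with a median of -0.56. Of the 12, limma called 0, where 4.45% of all genes were called, and limma-voom called 0. An unadjusted p under 0.05 was held by 3, beside 7759 of all 19397 genes. The part of this movement in the values of the 8 genes was not tested, but the ratio of each gene to the summed level in the same embryo was computed. On the log2 scale, the mean ratio of Prph was 0.96 lower under the null label than in Dnmt3b+/+, with values of -5.17, -6.05 and -6.75 against -5.15, -5.13 and -4.80. That of Isl1 was 0.16 higher, that of Th 0.10 higher and that of Ret 0.09 higher, which is less than the spread between embryos. The SD reached 0.59 for Isl1 (Dnmt3b+/+) and, under the null label, 0.78 for Th, 0.47 for Ret and 0.79 for Prph. For Sox10 the ratios were -5.80, -5.81 and -6.10 under the null label, -5.12, -6.09 and -5.03 in Dnmt3b+/+ and -5.25, -5.21 and -5.11 in Dnmt3bCI/CI. Wild-type embryo 2, with the highest neuronal sum, overlapped the null label in this ratio, and no Dnmt3bCI/CI embryo did. For Dbh the ratio was lowest in embryo 3 of the null label (-11.2) and next lowest in wild-type embryo 2 (-10.5).

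**Figure D4:**
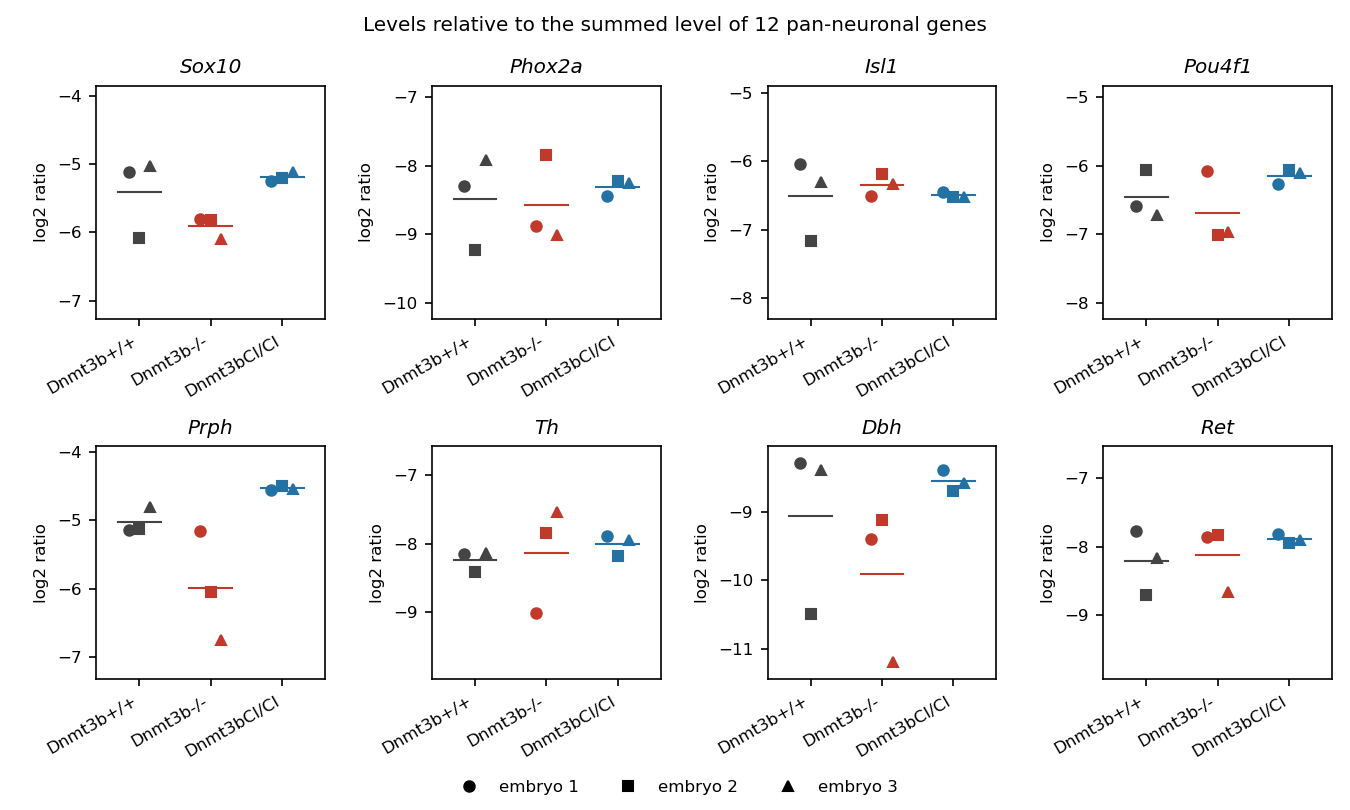
Log2 of the level of each gene over the summed level of 12 pan-neuronal genes in the same embryo (vertical axes, of equal height in all panels), with marker shapes for embryos and lines for genotype means. For Prph, Sox10 and Dbh all embryos labelled Dnmt3b-/- lay below all Dnmt3bCI/CI embryos, and for Isl1, Th and Ret the genotypes overlapped.

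Erythroid transcripts also differed. The summed level of 8 erythroid genes was 2234, 6984 and 3958 FPKM in the embryos of the null label, against 2273 to 2913 FPKM in Dnmt3b+/+ and 2119 to 2876 FPKM in Dnmt3bCI/CI. The embryonic globins Hbb-bh1 and Hba-x were called higher under the null label in both comparisons. Of all genes, 1.07% were called higher against Dnmt3b+/+ and 1.1% against Dnmt3bCI/CI. Embryo 1, which held the highest level of its label for 6 of the 8 ganglion genes, had the lowest erythroid sum of its label. Whether this had a part in the ganglion gene values was not tested.

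Other genes of the crest and ganglia were described from lists, by counts beside the background. Of 16 crest and glial precursor genes, limma called 2 lower under the null label than in Dnmt3b+/+ and none higher, where 3.38% of all genes were called lower and 1.07% higher, and the median log2 fold change was -0.48. One of the 2 was S100b, a calcium-binding protein of glia, which had 24, 30 and 52 reads in Dnmt3b+/+, 4, 0 and 0 reads under the null label and 38, 37 and 30 reads in Dnmt3bCI/CI. Unlike Sox10, S100b was lower in every embryo of the null label, embryo 1 included, than in any other. The crest cadherin Cdh19 was called in addition against Dnmt3bCI/CI (log2 fold change -1.05, adjusted p = 0.00520), where 4.32% of all genes were called lower.

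The sensory neuron list held 22 genes, of which 4 were called lower under the null label and none higher, in the comparison with Dnmt3b+/+ (3.38% of all genes called lower) and in that with Dnmt3bCI/CI (4.32%). Runx3, a factor of proprioceptive neurons (log2 fold change against Dnmt3b+/+ -1.43, adjusted p = 0.0280), Prrxl1, also named Drgx, a homeodomain factor of pain-sensing neurons (-1.14, adjusted p = 0.0468), and Avil, an actin-binding protein of sensory neurons (-1.07, adjusted p = 0.0282), were among the 4. The median log2 fold change of the list was -0.61 against Dnmt3b+/+.

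RET acts with co-receptors of the GFRA family. Each GFRA protein binds a GDNF family ligand and presents it to RET. Of 8 ligands and receptors of the family, Gfra3 (log2 fold change -1.45, SE 0.28, adjusted p = 0.00862) and Gfra2 (-1.05, SE 0.25, adjusted p = 0.0187) were called lower under the null label than in Dnmt3b+/+, and none was called higher. Among all genes, 3.38% were called lower and 1.07% higher. Gfra3, the co-receptor for artemin in sensory and sympathetic neurons, was at 1.71, 1.71 and 2.24 FPKM in Dnmt3b+/+, 1.11, 0.496 and 0.421 FPKM under the null label and 2.67, 2.48 and 2.65 FPKM in Dnmt3bCI/CI. Gfra1 and Gfra4 had an adjusted p of 0.0326 and 0.00489 with folds under 2 (log2 fold changes -0.81 and -0.92). The ligands Gdnf, Nrtn, Artn and Pspn had adjusted p of 0.0657 to 0.483.

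The autonomic and noradrenergic list had a median log2 fold change of -0.03 against Dnmt3b+/+, beside -0.07 for all genes. Of 19 genes, 17 could be tested and 1 was called lower, where 3.38% of all genes were. That gene was Npy, a peptide co-released with noradrenaline and made by many other neurons. Npy was at 4.91, 16.8 and 7.21 FPKM in Dnmt3b+/+, 2.92, 1.79 and 1.13 FPKM under the null label and 14.7, 12.9 and 17.7 FPKM in Dnmt3bCI/CI (log2 fold change against Dnmt3b+/+ -2.15, SE 0.45, adjusted p = 0.0111). Against Dnmt3bCI/CI, 2 of the 17 were called lower, where 4.32% of all genes were. These were Npy and Scg2, a granin of secretory granules (Scg2 -1.04, adjusted p = 0.0420). The noradrenaline transporter Slc6a2 and the vesicular transporter Slc18a1, which define mature noradrenergic and chromaffin cells, were at or below 0.128 FPKM in all embryos and were not tested.

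Isl1, Prph and Ret are also expressed in motor neurons. For 8 somatic motor neuron genes the median against Dnmt3b+/+ was 0.03 on the log2 scale. Of the 8, limma called 0, where 4.45% of all genes were called, and limma-voom called 0. None had an unadjusted p under 0.05, which 7759 of all 19397 genes had. Of 8 midbrain dopaminergic genes tested, Pitx3, also a lens factor, was called lower in both comparisons of the null label (-1.45 against Dnmt3b+/+, adjusted p = 0.0142). Of all genes, 3.38% and 4.32% were called lower in them. Lmx1a was called higher against Dnmt3bCI/CI (1.33, adjusted p = 0.00197), as were 1.1% of all genes, but not against Dnmt3b+/+ (0.37, adjusted p = 0.160). Lmx1a was at 1.04, 1.49 and 1.26 FPKM in Dnmt3b+/+, 1.37, 1.69 and 1.92 FPKM under the null label and 0.479, 0.701 and 0.620 FPKM in Dnmt3bCI/CI. Of 9 ureteric bud, hindlimb and second heart field genes, limma and limma-voom called 0 against Dnmt3b+/+. An unadjusted p under 0.05 was held by 3 of the 9, beside 7759 of all 19397 genes. Wnt11 was called lower against Dnmt3bCI/CI (-1.07, adjusted p = 0.0152), as were 4.32% of all genes. Over all 9 lists, limma and limma-voom called none of the 108 genes tested between Dnmt3bCI/CI and Dnmt3b+/+, where limma called 0.129% of all genes. An unadjusted p under 0.05 was held by 4 of the 108, beside 1019 of all 19397 genes.

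These counts also turned on single embryos of the null label. Without embryo 1, the genes called lower against Dnmt3b+/+ numbered 4 of 16 for crest and glial precursors, 10 of 22 for sensory neurons, 4 of 8 for the GDNF family, 4 of 17 for autonomic genes and 3 of 12 for pan-neuronal genes, where 6.1% of all genes were called lower. Without embryo 3 they numbered 2 of 16, 1 of 22, 1 of 8, 1 of 17 and 0 of 12 for the same lists, where 2.21% of all genes were called lower. With a pseudocount of 1 FPKM the counts were 0 of 16, 1 of 22 and 0 of 8 for the crest, sensory and GDNF family lists, where 0.686% of all genes were called lower, and under quantile normalization they were 2, 2 and 1, where 2.1% were. The median of the somatic motor neuron list was -0.34 without embryo 1 and 0.59 without embryo 3. Genes of that list named after their values were seen, Mnx1 (1.33, 0.366 and 0.0438 FPKM in embryos 1, 2 and 3 of the null label), Chat (0.526, 0.226 and 0.0176 FPKM) and Slc18a3 (2.18, 0.946 and 0.184 FPKM), were highest in embryo 1 and lowest in embryo 3. Olig2 (1.37, 2.96 and 4.87 FPKM), also a gene of progenitors, and Foxp1 (3.92, 4.07 and 4.22 FPKM), also expressed in many other cells, ran the other way.

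**Figure D5:**
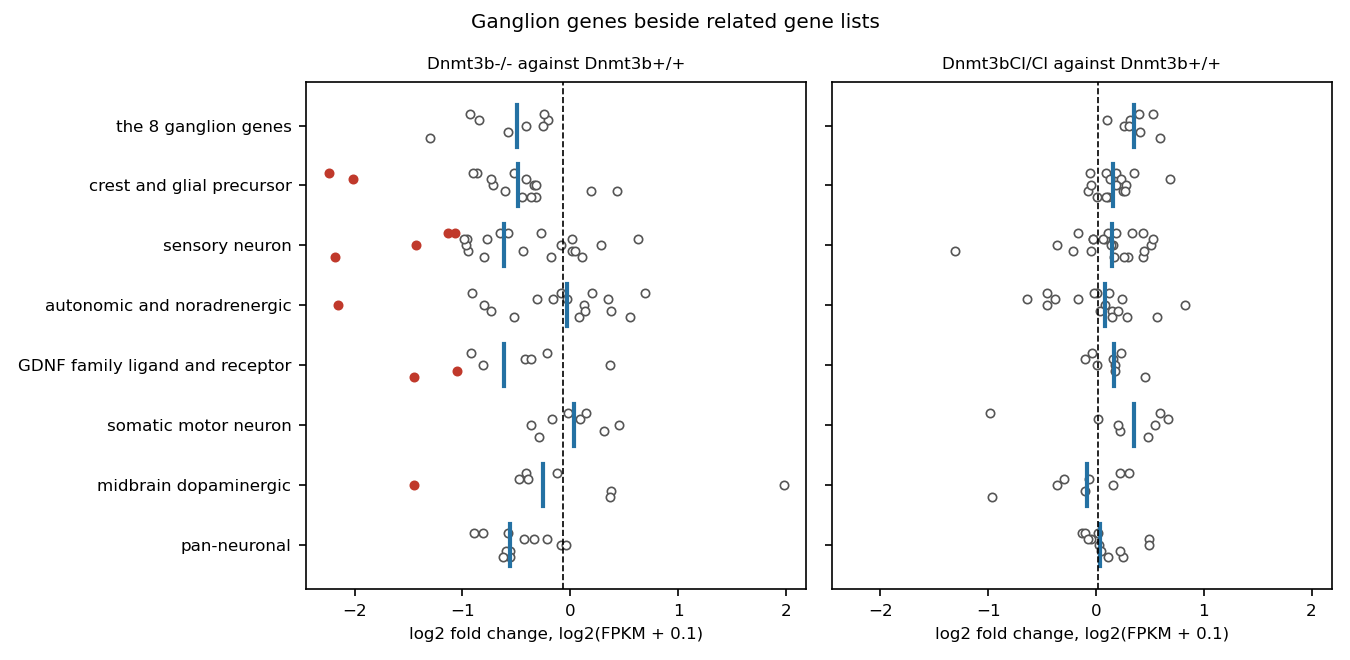
Log2 fold change on the log2(FPKM + 0.1) scale (horizontal axes) of each tested gene of the named lists, as points that are filled red where called, with the median of each list as a blue bar and the median of all genes tested as a dashed line. Against Dnmt3b+/+ (left), the medians of the 8 ganglion genes, the crest, sensory, GDNF family and pan-neuronal lists lay between -0.48 and -0.61 under the null label, and in Dnmt3bCI/CI (right) no gene of these lists was called.

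Levels of the 8 genes were correlated over the 9 embryos on the log2 scale, as a description in which the points share libraries and genotypes. Pearson's r of the 28 pairs ranged from 0.08 (Isl1 and Th) to 0.96 (Sox10 and Prph), with a median of 0.80. All 7 pairs with Th had an r of at most 0.54, and Th and Dbh, which encode enzymes of one pathway, had an r of 0.26, whereas Dbh had an r of 0.90 with Sox10 and 0.88 with Phox2a and Isl1. Among the 12796 genes with a mean of at least 1 FPKM, the profiles closest to that of Prph included those of Tlx3, a homeodomain factor of sensory neurons (r = 0.990), and Ednrb, the endothelin receptor of crest cells (0.990). The profile of Sox10 was most like that of Wnt11 (0.988), Rab40b (0.988) and Lasp1 (0.987), that of Pou4f1 like that of Tagln3 (0.990), and that of Dbh like that of Cxcl12 (0.991). Ret was most like Gm11536 (0.985) and Hoxd4 (0.980), Isl1 like Shisa3 (0.966), Phox2a like Cope (0.970) and Th like Ttc30b (0.941). The mean profile of the 8 genes was most like Zfand2a (0.987), and the crest factor Foxd3 was the 7th in that order (0.978), with 3.12, 5.42 and 4.76 FPKM in Dnmt3b+/+, 5.25, 2.01 and 1.06 FPKM under the null label and 4.75, 5.47 and 6.61 FPKM in Dnmt3bCI/CI.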

How the data were processed

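The deposited table gives 1 FPKM value per gene and embryo. The authors made libraries from total RNA, trimmed the read pairs, mapped them to mm10 with STAR, filtered on mapping quality and computed the FPKM in SeqMonk. The annotation release, strandedness and counting of pairs are not given in the sources used here. A gene without reads carries a value worth 0.9 reads. The row without a gene name was left out.

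Reads were worked back from the steps between values and GENCODE M21 exon lengths. They gave whole numbers (tolerance 0.05) for 34239 genes, at the annotated length for 91.9%.

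Genes with at least 0.1 FPKM in 3 of 9 embryos were tested two-sided with limma 3.58.1 (R 4.3.3, variance trend) on log2(FPKM + 0.1). The scripts were tested on simulated data. The study's own test, DESeq2, was not run.

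The genes and lists were chosen with earlier results of these data known. By rule, the list genes named are those called, at most 6 per list. Gfra1, Gfra4, the GDNF family ligands, Slc6a2, Slc18a1 and the motor neuron genes were named in addition. Likeness names the 3 genes with the highest r for a member and the 10 for the mean. Alternatives covered pseudocount, filter, scaling, variance trend, samples, block, fold and, added after seeing the data, limma-voom on the reads. Bisulfite data were not used here. A few genes that these rules name are not reported here.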

Additional observations from a re-analysis of the deposited data

How the results depend on the processing

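Leaving out 1 embryo at a time gave 0 to 3 calls among the 8 genes between the embryos labelled Dnmt3b-/- and Dnmt3b+/+, and 0 to 5 between those and Dnmt3bCI/CI. Over all genes, the same runs gave 587 to 1400 and 722 to 1579 calls. The highest counts came without embryo 1 of the null label. Against Dnmt3b+/+, the log2 fold change ranged from -0.47 to 0.017 for Isl1 and from -0.68 to 0.21 for Ret, and was above 0 without embryo 3 of that label. The cause was not tested. Against Dnmt3bCI/CI, the 2 calls became 0 with no filter on low values, 1 (Sox10) with no variance trend, 1 (Sox10) with only the genotypes compared in the model and 0 with the replicate number as a block. Over all genes, calls numbered 899 with no filter, 1016 with no variance trend and 1122 with only the genotypes compared. Same-numbered embryos did not deviate together (mean r of -0.0865, against 0.0478 for other pairs). Deviations from a genotype mean sum to 0, which ties these means of r to each other, so they cannot show a weak pairing. The block took the calls over all genes from 1051 to 926. Of the 456 values under alternatives for single genes, 430 kept their direction and their side of the threshold. Under quantile normalization the share of calls that were lower went from 75.9% to 59.6% over all genes (null label against Dnmt3b+/+), and the median log2 fold change of all genes against Dnmt3bCI/CI moved from -0.08 to 0.03, but no call among the 8 genes changed. The count against Dnmt3b+/+ was 0 under every other alternative, as was that of Dnmt3bCI/CI against Dnmt3b+/+ under all of them. With a pseudocount of 1 FPKM, genes called lower against Dnmt3b+/+ went from 3.38% to 0.686% of all genes, from 2 to 0 of 16 for crest and glial precursors, from 4 to 1 of 22 for sensory neurons and from 2 to 0 of 8 for the GDNF family. Depth limits Dbh most, with 11 reads in 1 embryo.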
